A study of Mus musculus with 4 samples.

Results

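The border myocardium described here is a set of 227 Visium spots of 1 mouse heart section, taken 7 days after myocardial infarction (MI). It was set against 757 remote spots of the same section, and the section held 2184 spots of the 9102 deposited for the series. The members were chosen by measured values. Spots with at most 1% of their UMIs (unique molecular identifiers, 1 per captured mRNA molecule) from hemoglobin genes, at least 500 UMIs and fewer than 10 UMIs of Myh1, Myh2, Tnnc2, Tnnt3 and Mylpf, the fast skeletal muscle genes, were eligible, and 1720 spots passed. The 206 eligible spots with the highest share of Col1a1, Col1a2 and Col3a1 were dropped as collagen-rich. The remaining 1514 were ranked by the summed share of Ankrd1, Flnc, Xirp2 and Nppb. The top 15% are the border spots, the bottom 50% are the remote spots, and 530 spots lie between them.

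The border zone is the living muscle next to an infarct. Its cardiomyocytes are stretched and stressed, re-express genes of the fetal heart, and are known to lower genes of mitochondrial fuel use. Ankrd1 encodes a stretch-responsive ankyrin repeat protein of the Z-disc and nucleus, Xirp2 and Flnc encode actin-binding proteins of the Z-disc and intercalated disc, and Nppb encodes the B-type natriuretic peptide, a hormone released by strained muscle.

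In adult female Hsd:ICR (CD1) mice, 12 weeks old by the study's methods, MI was made by tying off the LAD (left anterior descending) coronary artery for good. All 4 sections came from ligated hearts, 1 mouse each at days 1, 4, 7 and 14, so the remote spots belong to an infarcted heart and are no uninjured muscle. Both groups were set by RNA alone, and the distance of a spot from the scar was not used. Border and remote spots share a mouse and a section. With 1 mouse there is no replicate of the comparison: no test was made, no p-value is given, and each 95% interval covers counting error only. A Visium spot collects RNA of several cells, so a difference can lie in the amount of RNA per cell or in the makeup of cells, and fewer cells of a type and less RNA per cell cannot be told apart.

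The border spots held 1396968 UMIs, with a median of 6022 per spot, and the remote spots 3793362, with a median of 5148. The median number of genes detected per spot was 2225 in the border and 1599 in the remote spots. The spots at the limits were nearly equal. The lowest border spot had 0.556% marker UMIs, and the highest spot outside the border also had 0.556%. The highest remote spot had 0.275%, as had the next spot above it. The lowest dropped spot had 4.29% collagen UMIs and the highest kept spot 4.28%. Of the 2184 day 7 barcodes, 1572 to 1910 also occurred in each other section, and Visium slides carry a fixed set of spot barcodes.

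The ranking leaned on 1 gene. Ankrd1 gave 73.5% of the marker UMIs in the border spots and 56.5% in the remote spots, Nppb gave 17.8% and 27.0%, and Flnc and Xirp2 gave the rest. Ranked by the other 3 markers without Ankrd1, only 116 of the 227 border spots stayed in the top 15% and 27 fell into the bottom 50%. Ankrd1, not used in that ranking, stood at 3971 CPM (UMIs scaled to 1000000 UMIs of the group) in the border and 1670 in the remote spots, a log2 ratio of border over remote of 1.25 with an interval of 1.198 to 1.302. Left out in turn, Nppb had a log2 ratio of 1.03 (0.94 to 1.12), Xirp2 1.40 (1.20 to 1.59) and Flnc 0.71 (0.54 to 0.88).

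The label of remote myocardium held for most, not all, of the 757 spots. The summed share of 18 adult sarcomere genes had a median of 6.73% in the remote and 5.22% in the border spots. In 104 remote spots (13.7%) it was under 3.32%, which is 50% of the median of the 1514 ranked spots, and these spots, called sarcomere-poor below, held 7.19% of the remote UMIs. In the border 23 spots (10.1%) were as poor, with 6.88% of the UMIs. All 206 collagen-rich spots were. The poor remote spots carried 255 of the 272 remote UMIs of Spp1, the osteopontin gene of wound macrophages, 1265 of the 1558 of Fn1, the fibronectin gene, 693 of the 967 of Postn, the periostin gene of activated fibroblasts, and 88 of the 111 of Upk3b, a gene of the mesothelium that covers the heart. They also held 6131 of the 13342 remote UMIs of 21 macrophage genes. So a low marker share was found both in spots rich in sarcomere RNA and in spots with little of it. Values without the sarcomere-poor spots of both groups, which leaves 204 border and 653 remote spots, are an alternative chosen after seeing the data. They are given below for some genes and lists only, and a value not given can differ too.

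Outside the 7 genes of the rule, 5184 genes had at least 100 UMIs over both groups and are called measured below. Of these, 396 were at least 2-fold higher in the border spots, which is 7.64%, and 42 were at least 2-fold lower, which is 0.81%. For 146 and 12 of them the whole counting interval lay beyond 2-fold. A sparse gene can pass the limit of 100 UMIs through the group where it is high. Gdf15, with 171 border and 22 remote UMIs, and Sprr1a, with 160 and 15, passed through the border spots. The high ratios of such genes are partly a result of that limit. The scale matters here. Mitochondrially encoded genes took 18.3% of the border UMIs and 28.5% of the remote UMIs and the median log2 ratio of all 5184 genes was 0.32. Set relative to that median, 169 genes were at least 2-fold higher and 140 at least 2-fold lower, and the share of higher genes among the calls moved from 90.4% to 54.7%. Log2 ratios below are on the scale of all UMIs, and a value under 0.32 is below that of the median gene. Ranking without Ankrd1 left 36 genes at least 2-fold higher, of which 33 were among the 396. There were 32 genes at least 2-fold higher in the full ranking and in each of the 4 rankings with 1 marker left out. They include Nppa, Gdf15, Thbs4, Acta1, Meox1, Synpo2l, Myh7, Clu, Sprr1a, Rcan1, Ccn2, Cilp and Postn.

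Genes of the fetal and hypertrophic program led the border spots. Nppa (chr4:148000722-148002079 on GRCm38, plus strand) encodes the atrial natriuretic peptide, which the adult ventricle normally makes little of. Per 10000 UMIs of a spot, Nppa had a median of 33.5 in the border spots, with quartiles of 12.1 and 76.8 and a highest value of 363. In the remote spots the median was 0, the upper quartile 2.21 and the highest value 73.9. Only 3 of 757 remote spots reached the border median, and 9 of 227 border spots were at or below the remote median, so the groups overlapped little. Summed over spots, Nppa stood at 5881 CPM in the border and 188 CPM in the remote spots, a log2 ratio of 4.96 (4.85 to 5.08), the highest of the 5184 genes. Ranked without Ankrd1 the ratio was 3.24.

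Myh7 (chr14:54970684-54994626, minus strand), the slow beta myosin heavy chain of the fetal mouse ventricle, had a spot median of 39.1 per 10000 in the border and 3.76 in the remote spots. Only 2 of the remote spots reached the border median. Its summed level was 4210 CPM against 504 CPM, a log2 ratio of 3.06 (2.99 to 3.14), and 1.43 ranked without Ankrd1. Its neighbour Myh6 (chr14:54941921-54966927, minus strand), the fast alpha chain of the adult mouse heart, went the other way. The spot median of Myh6 was 55.5 in the border and 102 in the remote spots. Its log2 ratio was -0.65 (-0.69 to -0.62), and -0.15 ranked without Ankrd1. Acta1 (chr8:123891769-123894751, minus strand), the skeletal alpha-actin that fetal and overloaded hearts express, had a spot median of 10.1 in the border and 1.71 in the remote spots. It stood at 1339 CPM and 235 CPM, a log2 ratio of 2.51 (2.40 to 2.63), and 1.96 ranked without Ankrd1. Sprr1a, a small proline-rich protein induced in stressed cardiomyocytes, was sparse, at 160 border and 15 remote UMIs, and was seen in 31.7% of border and 1.98% of remote spots. Its log2 ratio was 4.86 (4.09 to 5.73), and 1.41 ranked without Ankrd1. In the border, 10 spots held 38.8% of its UMIs. Of the 8 members of this list with enough UMIs, 5 were at least 2-fold higher and none lower, and their median log2 ratio was 1.84. The smooth muscle genes Tagln, Acta2 and Myl9 of the list had log2 ratios of 1.17, 0.91 and 0.81.

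**Figure D1:**
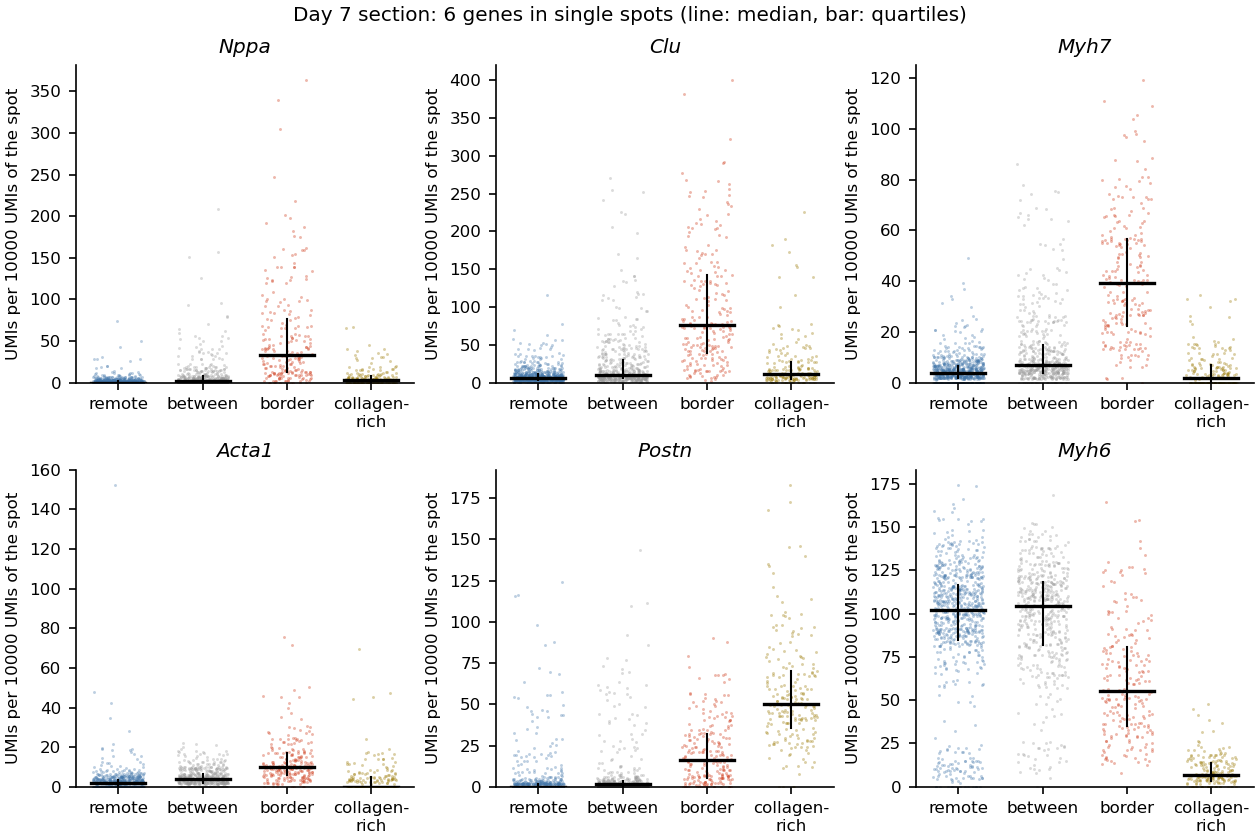
UMIs per 10000 UMIs of the spot (vertical axes) for 6 genes in single spots of the day 7 section: 757 remote, 530 between, 227 border and 206 collagen-rich spots, with the median as a line and the quartiles as a bar. Nppa, Clu, Myh7 and Acta1 were highest in border spots, Postn in collagen-rich spots with a median of 16.2 in the border, and Myh6 had a median of 102 in remote and 55.5 in border spots, with a separate low cloud among the remote spots (the 104 sarcomere-poor remote spots held 354 of the 37913 remote Myh6 UMIs).

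Short stretches of promoter are shown for 3 fetal genes with a searched word upstream of the annotated gene, since these genes were high in the same group of spots. The words were the MCAT element (CATTCC), the AP-1 site (TGANTCA) and the CArG box, each read on both strands in the 250 bases before the RefSeq start on GRCm38, and capitals mark the match.
Acta1 MCAT, chr8:123894807-123894830, minus strand: gggcagcaaCATTCCttcggggcg
Acta1 CArG box, chr8:123894832-123894855, minus strand: ccgacacCCAAATATGGcttggga
Myh7 MCAT, chr14:54994813-54994836, minus strand, word on the opposite strand: gtgagccgtGGAATGttagagata
Sprr1a AP-1, chr3:92486012-92486035, minus strand: actaaagcTGAGTCAgagggtgaa
Sprr1a AP-1, chr3:92485982-92486005, minus strand: gaggagggTGAGTCAtaggtgact
MCAT elements are bound by TEAD factors, CArG boxes by serum response factor and AP-1 sites by Fos and Jun proteins. Of the 396 higher genes, 295 were found in the promoter table, and 18.3% of them held the MCAT word, 8.47% the AP-1 word and 2.03% the CArG box. The shares were 13.6%, 5.49% and 1.90% for the 4152 measured genes in the table, and 14.4%, 7.82% and 1.62% for all 27025 genes of the table. Of the 42 lower genes, 33 were in the table, with shares of 15.2%, 9.09% and 3.03% in the same order. Myh6, lower in the border spots, also held an MCAT word. A match of letters is no binding site.

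Secreted stress proteins were high beside the fetal genes. Clu (chr14:65968483-65981547, plus strand) encodes clusterin, an extracellular chaperone, and had the highest border level of the 15 genes with the highest ratios. It had a spot median of 75.6 per 10000 in the border and 6.35 in the remote spots, and 2 remote spots reached the border median. The sums were 9088 CPM and 848 CPM, a log2 ratio of 3.42 (3.37 to 3.48). Ranked without Ankrd1 it was 1.43. Gdf15, a stress hormone of the TGF-beta family, had 171 UMIs in the border and 22 in the remote spots, a log2 ratio of 4.40 (3.75 to 5.11), or 2.46 ranked without Ankrd1, and was seen in 42.3% of border and 2.91% of remote spots. Of the 11 measured oncostatin, interleukin 6 and acute phase genes, 5 were at least 2-fold higher: Clu, the oncostatin receptor Osmr (log2 ratio 1.53), Cebpd (1.29), the TWEAK receptor Tnfrsf12a (1.11) and Tgm2. The complement gene C3 was at -0.44, and at 0.80 without the sarcomere-poor spots. The list median was 0.82. Ranked without Ankrd1, 2 of 12 measured genes of the list were at least 2-fold higher, 1 was lower, and the median was 0.36. Tnfrsf12a was then at 1.21, Osmr at 0.66 (0.11 to 1.20) and Cebpd at 0.31 (-0.13 to 0.74).

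Among Z-disc and stretch-response genes the picture was mixed. Of 23 measured genes, 4 were at least 2-fold higher and the median was 0.42, close to that of all genes. Synpo2l, an actin-binding Z-disc protein, stood at 249 CPM in the border and 60.4 CPM in the remote spots, a log2 ratio of 2.04 (1.80 to 2.29). Pdlim3, Synpo and Fhl1 had ratios of 1.47, 1.39 and 1.09. Ranked without Ankrd1, 2 of the 23 genes were at least 2-fold higher and the median was 0.22, against 0.12 for all genes. Synpo2l was then at 1.51, Fhl1 at 0.67, Pdlim3 at 0.41 (-0.17 to 0.97) and Synpo at 0.31 (-0.07 to 0.68). Csrp3 and Fhl2, also Z-disc proteins, had ratios of 0.09 and -0.41. Small heat shock proteins and chaperones had a median of 0.15 with none of 19 genes past 2-fold, and Cryab, an abundant small heat shock protein of muscle, was at -0.08.

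Matrix genes gave the most higher genes of the 39 lists. Of 24 measured matricellular and activated fibroblast genes, 21 were at least 2-fold higher and 1, Spp1, was lower, with a median log2 ratio of 1.74. Ranked without Ankrd1, 8 of the 24 were higher and the median was 0.58. The list median without the sarcomere-poor spots was 3.08, against 0.40 for all measured genes. Postn had a spot median of 16.2 per 10000 in the border and 0 in the remote spots, and 50 of 757 remote spots reached the border median. It stood at 1885 CPM and 255 CPM, a log2 ratio of 2.89 (2.78 to 2.99), at 4.40 without the sarcomere-poor spots and at 1.04 ranked without Ankrd1. Cilp, a matrix protein of pressure-loaded hearts, had 206 and 44 UMIs and a log2 ratio of 3.67 (3.19 to 4.17). Thbs4, Col8a1 and the microfibril genes Mfap4 and Ltbp2 had ratios of 2.84, 2.76, 2.59 and 2.39. With Ankrd1 left out of the ranking these 4 were at 2.25, 1.23, 0.69 and 1.11. Timp1, which inhibits matrix metalloproteinases, stood at 205 CPM and 61.4 CPM, a log2 ratio of 1.74 (1.48 to 1.99), and at 3.30 without the sarcomere-poor spots. With Ankrd1 left out of the ranking, Timp1 was not among the 8 genes of its list at least 2-fold higher. Meox1, a transcription factor of activated fibroblasts, had 122 and 42 UMIs and a log2 ratio of 2.98 (2.46 to 3.52). Of 13 measured resting fibroblast genes 9 were at least 2-fold higher, with Pi16 at 2.23, Serpinf1 at 2.06 and Lum at 1.71, and Dcn stood at 0.94. The median of this list was 1.13, and 1.93 without the sarcomere-poor spots. Ranked without Ankrd1, 1 of 13 was at least 2-fold higher, with a median of 0.22, Serpinf1 at 0.66 and Lum at 0.36. Of 14 basement membrane genes 9 were higher, led by Col15a1 at 1.71 and Col4a1 at 1.47, and none was lower. Ranked without Ankrd1 none of the 14 was past 2-fold and the median was 0.34, with Col15a1 at 0.82 and Col4a1 at 0.79. Among TGF-beta and insulin-like growth factor genes, 6 of 14 were higher, with Gdf15, Tgfb3 (2.11), Ltbp3 (1.74) and the binding protein Igfbp7 (1.70) at the top, and without Ankrd1 it was 1 of 14.

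Collagen moved with the border markers although the collagen-rich spots had been dropped. Col1a1, Col1a2 and Col3a1 took 0.959% of the border UMIs and 0.285% of the remote UMIs, and 0.837% and 0.106% without the sarcomere-poor spots. The part of this in the other ratios was not tested. The split that follows cannot give it, since the low-collagen border spots still held more collagen than the remote spots, whose spot median was 0.0955%. The split was also made on the collagen genes, so genes that vary with collagen come out higher in the high-collagen part through the choice of spots. Split at their median of 0.827% collagen, 114 border spots held 0.404% collagen UMIs and 113 held 1.69%. The low-collagen spots kept 21.5% mitochondrial and 6.14% sarcomere UMIs, and the high-collagen spots 14.0% and 4.31%. Set against the remote spots, the low-collagen border spots alone left 117 of the 396 genes at least 2-fold higher. Nppa was among them at a log2 ratio of 4.62, with Gdf15 at 3.92, Myh7 at 2.68, Clu at 2.64, Meox1 at 2.62 and Acta1 at 2.39. Between the low- and high-collagen border spots, Acta1 differed by 0.26 and Nppa by 0.70 on the log2 scale, Sprr1a and C1qtnf3 by 2.64, Cilp by 2.32 and Postn by 2.09, each higher in the high-collagen spots. At the strictest setting, with 13 border and 502 remote spots at or below the median collagen share of the ranked spots, Nppa was at 1.97, Acta1 at 1.57, Clu at 1.16, Postn at -0.11 and Myh6 at 0.13.

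**Figure D2:**
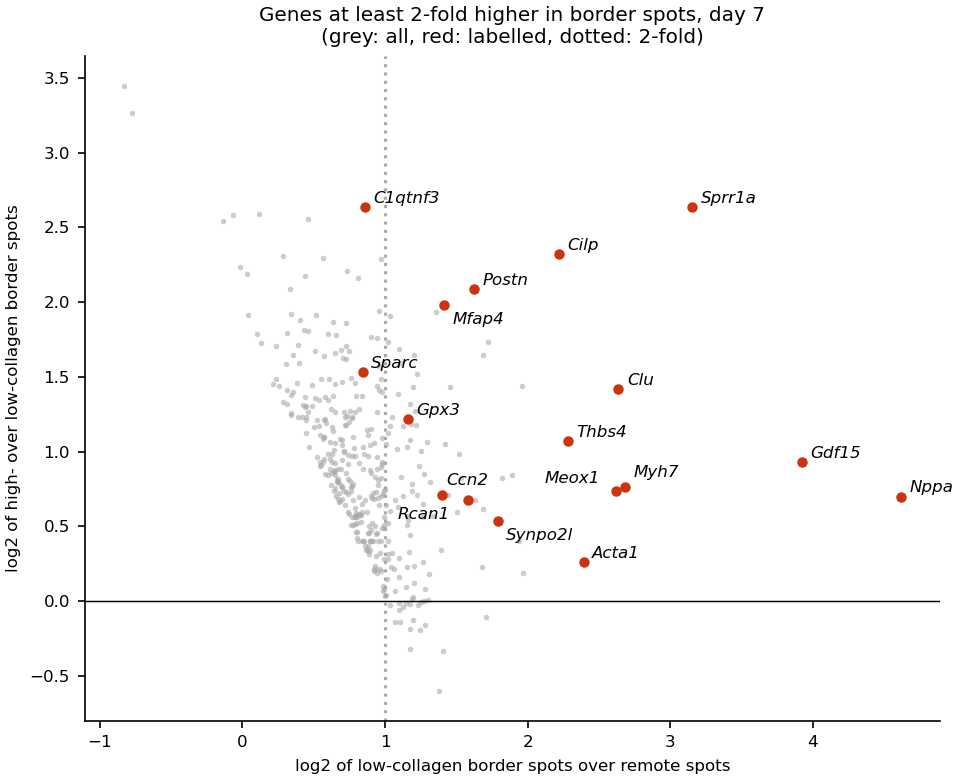
The 396 genes at least 2-fold higher in border spots, by the log2 ratio of low-collagen border over remote spots (horizontal axis) and of high- over low-collagen border spots (vertical axis). Nppa, Gdf15, Myh7 and Acta1 lie far right and low, Sprr1a, Cilp, Postn and C1qtnf3 lie high, and the empty lower left corner follows from the choice of genes at least 2-fold higher.

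Genes of fatty acid uptake and oxidation, the main fuel path of the adult heart, were lower as a group. All 30 measured genes had a log2 ratio under 0, while the median of all measured genes was 0.32. Of the 30, 4 were at least 2-fold lower, and their median was -0.78. Ech1, an auxiliary enzyme of beta-oxidation (chr7:28825217-28832247, plus strand), had a spot median of 4.65 per 10000 in the border and 13.9 in the remote spots. It stood at 553 CPM against 1446 CPM, a log2 ratio of -1.39 (-1.496 to -1.277). Acaa2, the last thiolase step of beta-oxidation, and Eci1, an isomerase for unsaturated fatty acids, had ratios of -1.27 and -1.25. Acsl1, which activates fatty acids with coenzyme A, had -1.03, Fabp3, their carrier protein, -0.51 and lipoprotein lipase Lpl -0.29. Ranked without Ankrd1, none of the 30 was past 2-fold and the median was -0.24 against 0.12 for all genes.

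The other mitochondrial lists had the same sign with smaller values. All 24 citrate cycle and pyruvate dehydrogenase genes were under 0, with a median of -0.56 and Idh2 at -0.89. The 12 mitochondrially encoded respiratory chain transcripts had ratios from -0.78 to -0.55. mt-Co1 stood at 45661 CPM in the border and 73814 CPM in the remote spots, a log2 ratio of -0.69. Of 77 nuclear-encoded oxidative phosphorylation subunits, 74 were at or under 0, 1 lay above the median gene, and the list median was -0.40. The 19 genes of branched-chain amino acid breakdown had a median of -0.61, with Bckdhb and Ppm1k at -0.96. None of these genes was past 2-fold. In the ranking without Ankrd1 the list medians were -0.09 for citrate cycle and -0.31 for mitochondrially encoded genes. They were -0.085 for nuclear-encoded oxidative phosphorylation and -0.23 for branched-chain genes, against 0.12 for all genes. Over the alternative settings the nuclear-encoded median ran from -0.72 to 0.0007 and the branched-chain median from -0.93 to 0.26. Neither kept its sign in every setting. The citrate cycle and mitochondrially encoded medians stayed under 0. With totals that leave out mitochondrially encoded genes, the median of all genes was 0.13. Glycolysis genes had a median of 0.07, and of 19 measured only the glucose transporter Slc2a1 reached 2-fold, at 1.02. That median lies above 0 but below the median gene, at -0.25 relative to it, as do those of the chaperones (-0.17), the proteasome (-0.07) and the cardiac transcription factors (-0.26).

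**Figure D3:**
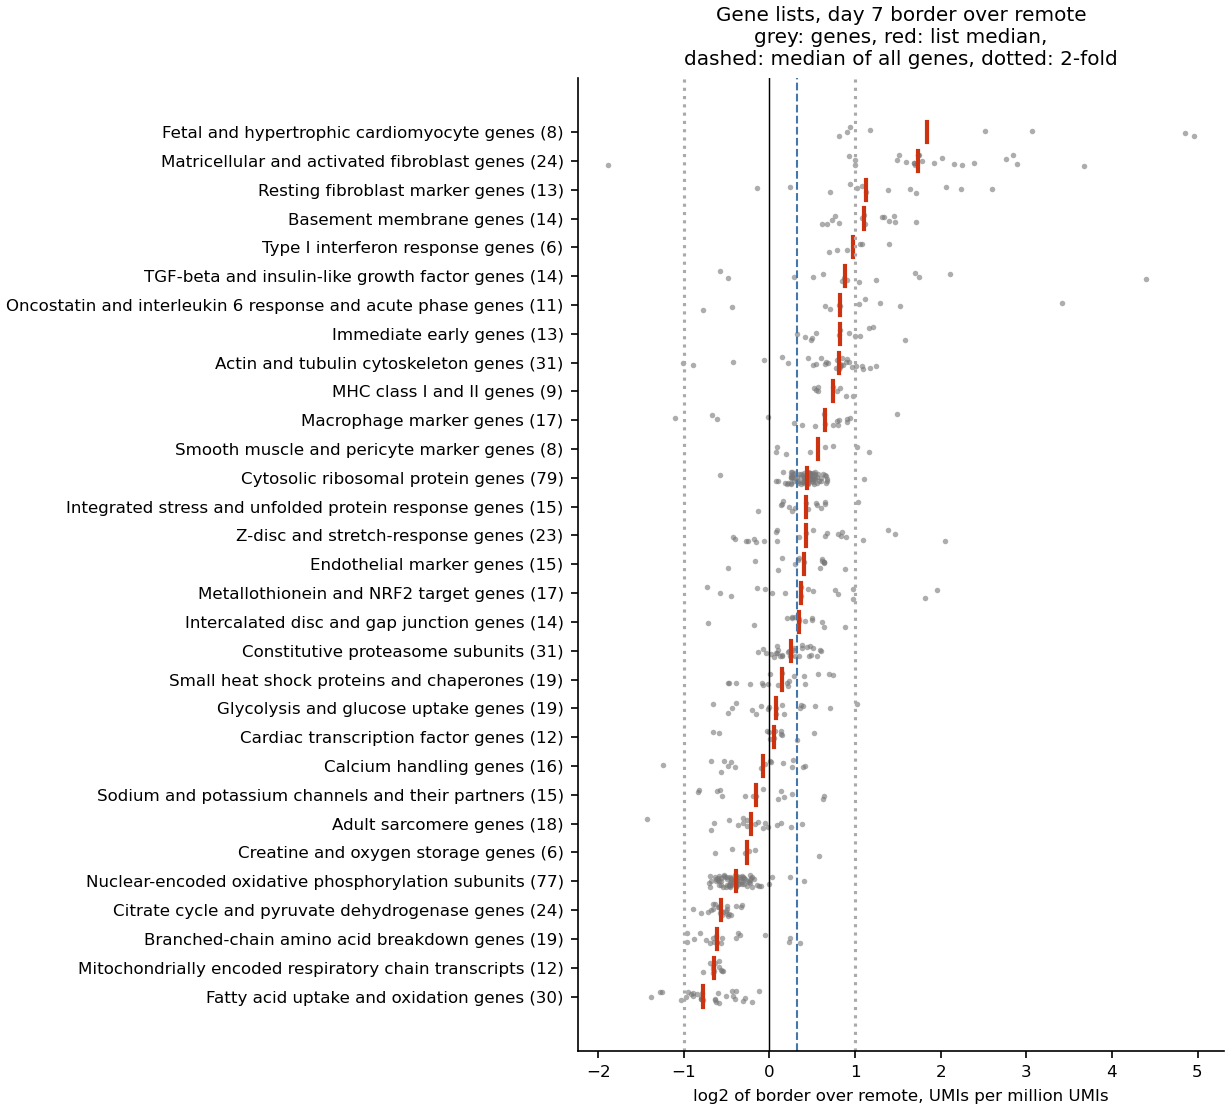
Log2 ratio of border over remote spots (horizontal axis) for the measured genes (grey) of each list with 6 or more measured genes, whose number is in parentheses, with the list median in red, the median of all genes, 0.32, as a dashed line and 2-fold as dotted lines. Medians run from 1.84 for fetal and hypertrophic genes to -0.78 for fatty acid genes.

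Most adult contractile and calcium genes differed by less than 2-fold. Log2 ratios at or under 0 were found for 14 of 18 sarcomere and 9 of 16 calcium handling genes. The median of all measured genes was 0.32, and 1 of the 18 and 2 of the 16 lay above it. Relative to the median gene, the list medians were -0.54 and -0.39. Ranked without Ankrd1, the list medians were 0.05 and 0.08 on the scale of all UMIs, against 0.12 for all genes. Of 18 sarcomere genes, 1 was at least 2-fold lower, the myosin light chain kinase family member Mylk4 at -1.43, and the median was -0.22. Mybpc3, the cardiac myosin binding protein, was at 0.38, and Tnni3, cardiac troponin I, at -0.68. Of 16 calcium handling genes, 1 was at least 2-fold lower: Strit1, which encodes the small peptide DWORF that activates the calcium pump, stood at 178 CPM in the border and 423 CPM in the remote spots, a log2 ratio of -1.25 (-1.45 to -1.05). The pump itself, Atp2a2, had -0.53, and its inhibitor phospholamban, Pln, -0.45. Ranked without Ankrd1, no sarcomere or calcium handling gene was past 2-fold. Strit1 was then at -0.26 (-0.42 to -0.10), Mylk4 at -0.11 (-0.57 to 0.33), Atp2a2 at -0.17 and Pln at -0.08. Sodium and potassium channel genes had a median of -0.16, with Kcnip2, a subunit of the transient outward potassium channel, at -0.83. The gap junction gene Gja1 was at 0.26. Cardiac transcription factor genes had a median of 0.06, with Gata4 at -0.66 and Tbx20 at 0.52.

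Immune and stress lists were mostly shifted up by less than 2-fold. Of 17 macrophage genes, 1 was at least 2-fold higher, Adgre1 at 1.49, and 1 was lower, Folr2 at -1.10, and the median was 0.65. The summed macrophage share was 0.548% in the border and 0.352% in the remote spots. Per spot it ranged from 0.0458% to 2.02% in the border and from 0 to 6.49% in the remote spots. Without the sarcomere-poor spots it was 0.518% and 0.205%, and the list median was 1.39. Ranked without Ankrd1 the list median was -0.42. The part of macrophage RNA in the other ratios was not tested. Cd74, an MHC class II chaperone, was at 0.97, and all 9 MHC genes were above 0 and above the median gene, with a list median of 0.74. Ranked without Ankrd1 this direction was lost, with a list median of -0.0065, Cd74 at -0.21 and H2-Ab1 at -0.32. Immediate early genes had a median of 0.82 with 4 of 13 at least 2-fold higher, among them Junb at 1.58 and Fosl2 at 1.05, both AP-1 subunits. Of 15 genes of the integrated stress and unfolded protein response, Ddit3 was the only one past 2-fold, at 1.03. Metallothionein Mt2 was at 1.96 and the secreted glutathione peroxidase Gpx3 at 1.82, while the median of their list of 17 was 0.37. Ribosomal protein genes had a median of 0.44 and proteasome subunits 0.25. The 6 measured interferon response genes had a median of 0.98, with Ifi27l2a at 1.40. Actin and tubulin cytoskeleton genes had a median of 0.81, with 5 of 31 higher and 1 lower. Ranked without Ankrd1, the median was 0.40 for immediate early, 0.23 for interferon response and 0.20 for cytoskeleton genes. It was 0.11 for integrated stress and unfolded protein response and 0.10 for ribosomal protein genes, against 0.12 for all genes. Of these lists only 1 gene, of 12 immediate early genes, was then past 2-fold, and Junb was at 0.59 (-0.03 to 1.19). The list of Mt2 and Gpx3 had a median of 0.15 in that ranking, with none of 16 genes past 2-fold. Mt2 was there at 0.61 (0.15 to 1.06) and Gpx3 at 0.64.

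Marker lists of other cell types took small shares of the UMIs in both groups, which is no measure of the number of such cells. Endothelial genes took 0.216% of border and 0.169% of remote UMIs, and smooth muscle and pericyte genes 0.094% and 0.0636%. Neutrophil, lymphocyte and adipocyte genes took at most 0.00406% in either group and none had 100 UMIs. In the border spots the adipocyte genes Adipoq, Plin1 and Cidec, the neutrophil genes Retnlg and Il1r2, the lymphocyte genes Cd3e and Ms4a1, and the atrial genes Myl7 and Bmp10 were at 0 UMIs. A count of 0 there allows up to 2.15 CPM (3 UMIs of the group). The atrial list had 163 UMIs in the border and 206 in the remote spots, of which 99 and 72 were from Dkk3, its 1 gene with enough UMIs, at a log2 ratio of 1.90. Myh1, Atp2a1 and Tnnt3, fast skeletal muscle genes, were at 0.69, 0.62 and 0.26, within the limit that the rule set for each spot on 2 of them.

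Among genes at least 2-fold lower with the whole interval beyond 2-fold, 11 remained after leaving out predicted genes, of which 10 are described. Ech1, Acaa2, Eci1 and Strit1 are given above. Ces1d, a carboxylesterase, Efnb3, an ephrin ligand, and Timp4, the heart's metalloproteinase inhibitor, had ratios of -1.59, -1.68 and -2.71. Timp4 had 8 UMIs in the border and 142 in the remote spots. Without the sarcomere-poor spots these 3 were at -1.61, -1.79 and -2.70. Ranked without Ankrd1 they were at -0.65, -0.65 and -0.48, so none of the 3 was past 2-fold. The interval of Timp4 was then -1.06 to 0.07. The other 3 lay largely in few remote spots. The 10 highest spots held 71.3% of the remote UMIs of Spp1, 57.0% of those of Fcna, a ficolin of macrophages, and 46.8% of those of Upk3b. Without the sarcomere-poor spots, Upk3b went from -4.35 to -2.09, Fcna from -3.21 to -1.23 and Spp1 from -1.89 to 1.87. The values of Upk3b and Spp1 without these spots rest on fewer UMIs than the minimum set for a measured gene. No counting interval is given for them. With all spots of both groups, Upk3b had 2 UMIs in the border, with an interval of -7.42 to -2.47 for the ratio.

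The ranked spots were also cut into 10 bins of 151 or 152 spots by rising marker share. Nppa stood at 129 to 255 CPM in bins 1 to 5, at 466 CPM in bin 7, 1245 CPM in bin 8, 2130 CPM in bin 9 and 7515 CPM in bin 10. Acta1 climbed from 158 CPM in bin 1 to 1556 CPM in bin 10 with no step down between them. Myh6 lay between 9660 and 10664 CPM from bin 2 to bin 8 and was at 8402 CPM in bin 9 and 5563 CPM in bin 10. Postn had high values at both ends, 874 CPM in bin 1, 106 CPM in bin 4 and 2111 CPM in bin 10. Spp1 and Upk3b were highest in bin 1, at 436 and 138 CPM. In that bin the sarcomere share was 4.53%, against 6.52% to 6.84% in bins 2 to 8.

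**Figure D4:**
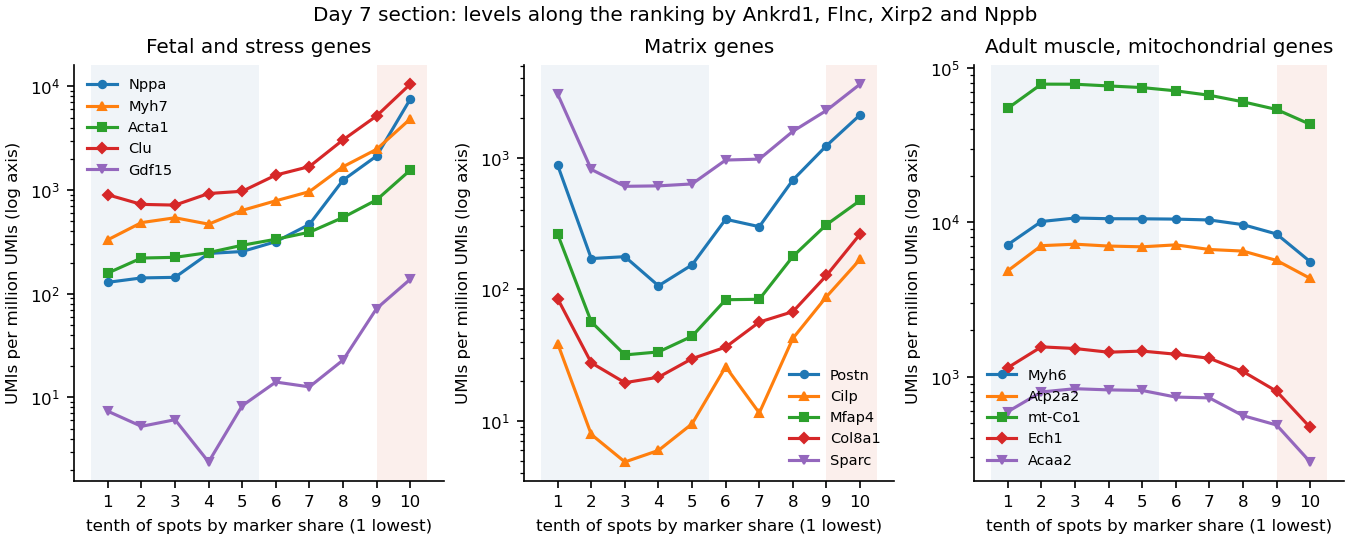
Level in CPM (log axis) of 15 genes in 10 equal bins of the 1514 ranked day 7 spots by rising share of the 4 markers, with the remote spots shaded blue and the border spots red. Fetal and stress genes climb mainly from bin 7 to bin 10, matrix genes are high at both ends, and adult muscle and mitochondrial genes dip at both ends.

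The same rule was applied to the other sections, each with its own border and remote spots and from another mouse, so day and mouse cannot be told apart. The rule yields a border group in any section, and the marker shares differed. The lowest border spot of day 1 had 1.18%, that of day 4 had 0.485%, and that of day 14 had 0.205%. The collagen drop also fell at unlike levels. Its lowest dropped spot had 0.234% collagen UMIs on day 1, 3.43% on day 4 and 1.08% on day 14, against 4.29% on day 7. By each section's own limit, 38 of 249 border spots were sarcomere-poor on day 1, 6 of 221 on day 4 and 1 of 269 on day 14. Of the 390 genes higher on day 7 and measured on day 4, 298 (76.4%) were at least 2-fold higher on day 4, which is 43.6% of the 684 genes higher there, while 13.3% of all 5154 genes measured on both days were. None was at least 2-fold lower on day 4. On day 14, 99 of 307 (32.2%) were at least 2-fold higher, against 3.14% of 4970 genes. The 99 made up 63.5% of the 156 higher there. Of 306 genes measured on day 1 too, 189 (61.8%) were at least 2-fold higher on day 1, against 20.9% of 4969 genes. The 189 made up 18.2% of the 1040 higher there. Of the 306, 11 were at least 2-fold lower: Crebrf, Dpt, Ecm2, Entpd2, Fbln1, Fbln5, Islr, Itm2a, Lama2, Mmp2 and Serping1. Dpt, Lama2 and the fibulins are matrix genes. Of the genes lower on day 7, 27 of 36 were at least 2-fold lower on day 1, where 7.53% of all were, and Spp1 and Tfrc were at least 2-fold higher. On the later days, 25 of 38 were at least 2-fold lower on day 4, where 2.35% of all were, and 2 of 35 on day 14, where 0.0402% were. The median log2 ratio of the genes measured on both days was 0.35 on day 1, 0.39 on day 4 and 0.19 on day 14.

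Nppa was high in the border spots of every section, with log2 ratios of 5.55, 5.43, 4.96 and 4.74 on days 1, 4, 7 and 14. Its border level was 4245, 25762, 5881 and 698 CPM in the same order. Myh7 had ratios of 0.03, 2.69, 3.06 and 2.06 in that order. Its border level was 354 CPM on day 1 and 4210 CPM on day 7, while its remote level stayed between 243 and 504 CPM. Acta1 had ratios of 5.23, 4.85, 2.51 and 2.60. Clu had 3.21, 3.90, 3.42 and 1.44. Postn had 3.15 on day 1 and 3.85 on day 14. Ech1 had -1.03, -2.29, -1.39 and -0.59, so each section had the lower level in the border spots. Spp1 differed in sign, at 5.80 on day 1 and -1.78 on day 4. In the day 4 remote spots 92 of 736 were sarcomere-poor, and they held 3557 of 3734 Spp1 UMIs, while on day 1 it was 3 of 829 spots. The border spots held 728 Spp1 UMIs on day 1, 315 on day 4 and 27 on day 7.

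**Figure D5:**
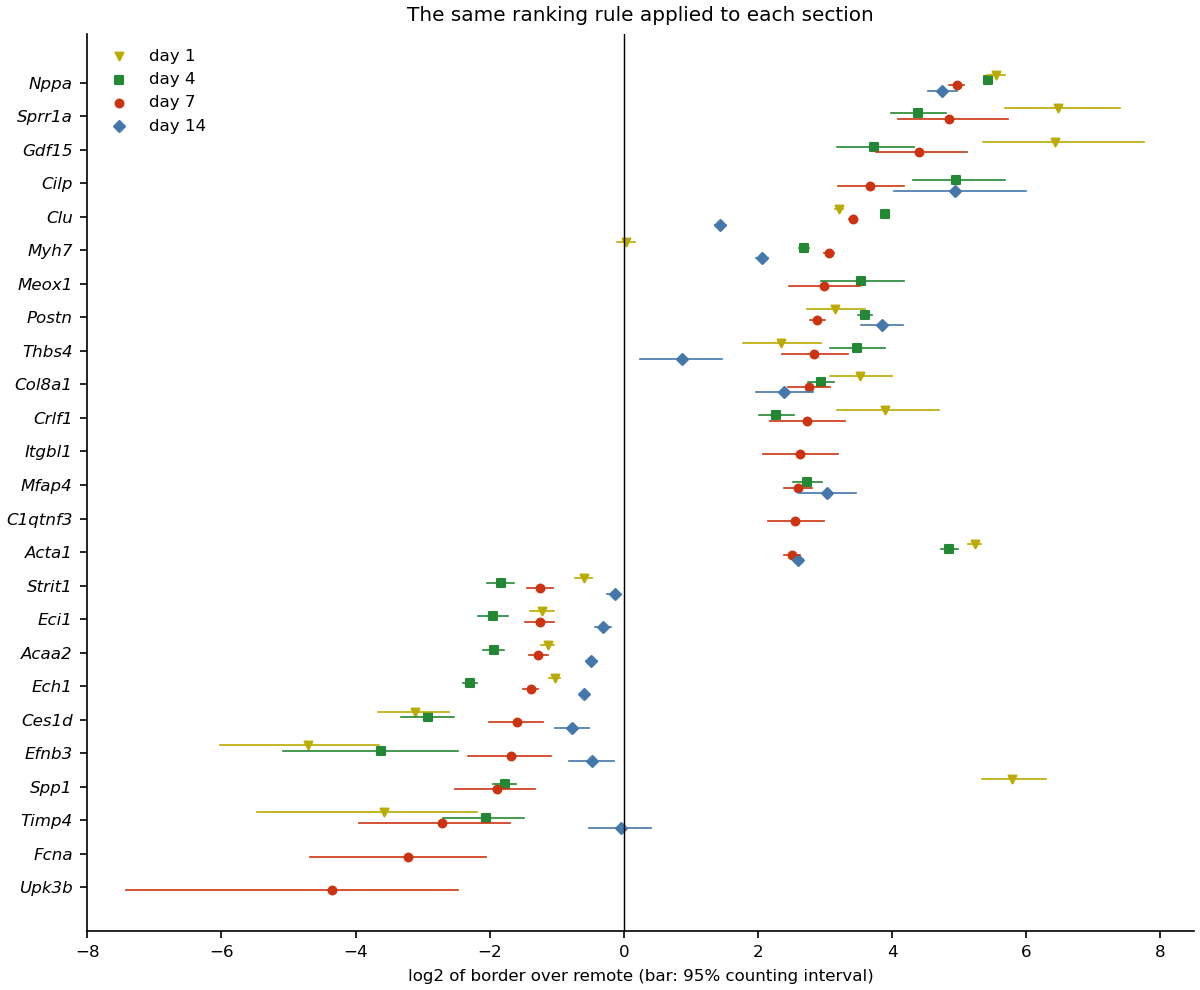
Log2 ratio of border over remote spots (horizontal axis) with its 95% counting interval in each section, for the 15 most increased and 10 of the most decreased genes of day 7, shown where a gene had at least 100 UMIs over both groups of the section. Nppa lies between 4.74 and 5.55 in all 4 sections, Myh7 is at 0.03 on day 1, and Spp1 is at 5.80 on day 1 and -1.89 on day 7.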

How the data were processed

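Visium libraries were made from 10 µm sections of fresh-frozen hearts, 1 section per day. The authors processed reads with Space Ranger 1.3.0 against mm10, with images aligned by hand, and the submitters' processing notes also name Seurat 4.1.1. The deposited values are raw UMI counts of 32285 genes in each spot. The study's removal of spots near tissue edges was not repeated, and spot positions were not used.

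UMI counts were summed over border and over remote spots and divided by the group total (CPM). Levels have exact Poisson and ratios exact conditional 95% intervals (Python 3.11.15, scipy 1.17.1), checked on simulated counts. Genes needed 100 UMIs over both groups, and called means at least 2-fold. No test was made, since 1 section per day leaves no replicate.

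Genes were named by rule: the 15 highest and 15 lowest ratios whose interval lay beyond 2-fold, without predicted genes (11 were lower), up to 4 members with the largest ratio and 2 with the most UMIs of each of 39 lists, and the 7 genes of the ranking rule. Ltbp2, Timp1, Fn1, Rcan1, Ccn2, Tagln, Acta2, Myl9, Mybpc3 and Tgm2 lie outside it and were chosen after their values were seen. The members and lists were chosen with earlier results of these data known. Coordinates are from GENCODE vM21 and promoters from RefSeq, both on GRCm38, the assembly that mm10 names. Alternatives varied the totals, the other limits of the spot rule, the markers, the gene minimum and the fold. The limit on fast skeletal muscle genes, which removed 110 spots of day 7, was not varied. A few genes that the rule names are not reported here.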

Additional observations from a re-analysis of the deposited data

Results flagged for a closer look

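Spp1, the osteopontin gene of wound macrophages, had opposite signs in 2 sections. Its log2 ratio of border over remote spots was 5.80 on day 1 and -1.89 on day 7. The difference was not tested, since each day is 1 section. Without the sarcomere-poor spots the day 7 ratio was 1.87. That value rests on fewer UMIs than the minimum set for a measured gene, and no counting interval is given for it. The poor spots held 255 of the 272 remote UMIs on day 7 and 2 of the 40 on day 1. Among border spots they held 4 of 27 Spp1 UMIs on day 7 and 141 of 728 on day 1. So the border count of Spp1 differed between the days too, in groups of 1396968 and 1772010 UMIs.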

How the results depend on the processing

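The 195 named genes include the 7 genes of the ranking rule, whose ratios the rule itself shapes. Over 19 alternative settings the 195 genes had 3683 values, of which 120, in 66 genes, had the opposite sign to the main value. Of these, 45 came from the setting at or below the median collagen share and 25 from ranking without Ankrd1. Among genes at least 2-fold higher or lower in the main setting, 13 values in 12 genes changed sign, given below. They include Col1a2, a gene of the rule and not 1 of the measured genes, with a main log2 ratio of 1.69. The setting that reversed it selects spots by a collagen share that Col1a2 is part of. The counts of genes at least 2-fold higher and lower, 396 and 42, moved more. They were 226 and 90 with totals without mitochondrially encoded genes, and 169 and 140 with the median gene set to 0. With other border or remote fractions, 75 genes were lower with the top 10%, 25 lower with the top 20%, and 227 higher with the bottom 30%. Dropping the top 5% of spots by collagen left 140 higher, dropping 25% left 243 higher and 12 lower, and keeping spots at or below the median collagen share gave 194 and 204, from 13 border spots. A hemoglobin limit of 0.5% left 210 higher, the mean of spot shares 247, thinning to 2000 UMIs 167, and ranking without Ankrd1 36 higher and 17 lower. A gene minimum of 50 UMIs gave 740 and 73, one of 500 UMIs 85 and 12, and a 1.5-fold limit 1419 and 225. Of the alternatives chosen after seeing the data, leaving out sarcomere-poor spots gave 613 higher, and low-collagen border spots alone 94. The cause of these shifts was not tested. Spp1 changed sign to 0.62 with 25% of spots dropped by collagen and to 1.87 without sarcomere-poor spots. The value of 1.87 rests on fewer UMIs than the minimum set for a measured gene. At or below the median collagen share, Postn was at -0.11, Mfap4 at -0.10, Col1a2 at -0.60, Ier5 at -0.016, Tpm3 at -0.066, Ifi35 at -0.42, Cenpf at 0.049, Efnb3 at 0.13 and Timp4 at 0.063. Ranked without Ankrd1, Adgre1 was at -0.24 and Tmsb10 at -0.16. Of genes under 2-fold, Cd74, C1qc and Bst2 were then at -0.21, H2-Ab1 at -0.32 and Apoe at -0.17. Nppa, Myh7, Acta1 and Clu kept their sign in every setting run. Sparse genes such as Sprr1a, with 15 remote UMIs, are limited by depth. No paired analysis was possible because each day is 1 section.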
